A study of Homo sapiens with 30 samples.

Results

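The Polycomb genes described here are the 9 genes EZH1, EZH2, EED, SUZ12, RNF2, BMI1, CBX2, CBX8, and PHC2, taken by symbol from an RNA-Seq table of 26228 genes. Each symbol matched a single entry, and all 9 passed the filter on low values that left 11575 genes for testing. The table holds SH-EP, an established neuroblastoma (NB) cell line without MYCN amplification, and 4 lines made from it with a stably integrated retroviral MYCN transgene driven by an exogenous promoter, in its wild-type (WT) form, with T58A, with S62A, or with both substitutions (the double mutant, T58A S62A). T58A and S62A are alanine substitutions in the MYCN phosphodegron, where phosphorylation governs the stability of the protein. Every line was exposed for 6 hours to DMSO or to 1 μM CYC065, an inhibitor of CDK9 and CDK2, with 3 libraries per group and 30 libraries in all. SH-EP is the parental line by its labels, and the other 4 lines share its background. Levels are in FPKM, fragments scaled to transcript length and to the mapped fragments of the library, and the 3 libraries of a group are called a, b, and c in the order of their columns. Nothing states that libraries came from separate cultures, so p-values measure only the spread between these libraries, which may be technical.

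Polycomb proteins keep developmental genes silent through 2 complexes. PRC2 methylates histone H3 to give H3K27me3 through EZH2 or its less active paralog EZH1, and needs the scaffold SUZ12 and EED, which binds the mark. Canonical PRC1 contains the ubiquitin ligase RNF2 (RING1B), a PCGF protein such as BMI1, a CBX protein that reads H3K27me3, and a PHC protein that lets complexes cluster. EZH2 is widely studied in NB as a repressor of differentiation genes.

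The labels were borne out by MYCN, which was listed at 0 in all 6 SH-EP libraries. In DMSO MYCN averaged 12.9 FPKM ± 1.09 (SD, n = 3) in WT, 8.52 ± 1.29 in T58A, 13.5 ± 3.83 in the double mutant, and 5.72 ± 0.778 in S62A. The 6 mesenchymal NB markers summed to 3484 to 3648 FPKM in SH-EP in DMSO and to 1568 to 2298 FPKM in the MYCN lines. As deposited, 5 of the 6 were called lower in all 4 MYCN lines, as were 13.4% of all tested genes. The remaining 1 was called higher in the double mutant. The 7 adrenergic markers summed to at most 24.6 FPKM in any DMSO library, and 6 markers of leukocytes, epithelium, endothelium, and Schwann cells to at most 0.790 FPKM in any of the 30 libraries. Read totals are not part of the table. The steps between low FPKM values gave relative depths of 0.470 to 1 in DMSO and 0.293 to 0.555 in CYC065, on a scale where the deepest library is 1, so low levels after CYC065 rest on fewer reads. Each of the 6 SH-EP libraries carried an index sequence that a MYCN-line library also carried, and whether SH-EP was sequenced apart from the other lines cannot be told apart from the line itself.

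Promoter sequences show 2 kinds of short words that bear on MYC and cell-cycle transcription, and the entries that hold one are printed for SUZ12 and PHC2, which were higher in the MYCN lines as deposited and lower on average with spike-in scaling, and for BMI1. The RefSeq promoter table (GRCh38.p14) had 10 entries for 7 members, with no entry for CBX2 and CBX8. The E-box CACGTG, the palindromic word bound by MYC family proteins with MAX, was found in 2 of the 10, PHC2 and BMI1, and in 6.34% of 35116 promoters. An E2F-type word (TTTCGCGC, TTTGGCGC, TTTCCCGC, or TTTGCCGC on either strand, none overlapping the E-box) was found in SUZ12 and EZH1 and in 2.79% of all promoters. The EZH1 entry (GCGGCAAA, starting at -115 from the start site) is not printed. As deposited, neither EZH1 nor BMI1 by itself was called different from SH-EP in any MYCN line. The sequences run 5′ to 3′ over the 250 bases before the start site on the gene's strand, with the matched word in capitals, and the other entries of PHC2 and BMI1 held neither word.
SUZ12 (chr17:31936757-31937006, plus strand, word starting at -189 from the start site): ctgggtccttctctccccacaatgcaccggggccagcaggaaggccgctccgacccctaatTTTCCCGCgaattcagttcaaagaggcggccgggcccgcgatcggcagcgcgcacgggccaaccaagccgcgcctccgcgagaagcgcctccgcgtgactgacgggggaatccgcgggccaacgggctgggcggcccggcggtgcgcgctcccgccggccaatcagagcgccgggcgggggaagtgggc
PHC2 (chr1:33431096-33431345, minus strand, E-box starting at -52): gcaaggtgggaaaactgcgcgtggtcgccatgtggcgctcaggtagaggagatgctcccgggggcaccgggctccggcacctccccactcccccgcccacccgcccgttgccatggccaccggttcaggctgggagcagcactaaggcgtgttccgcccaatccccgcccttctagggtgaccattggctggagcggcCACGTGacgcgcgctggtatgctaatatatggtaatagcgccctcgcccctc
BMI1 (chr10:22320849-22321098, plus strand, E-box starting at -70): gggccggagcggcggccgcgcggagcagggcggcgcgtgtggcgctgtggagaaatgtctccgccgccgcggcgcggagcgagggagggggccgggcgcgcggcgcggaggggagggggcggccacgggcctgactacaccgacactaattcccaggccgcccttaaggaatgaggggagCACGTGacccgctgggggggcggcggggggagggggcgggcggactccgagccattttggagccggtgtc
A match is a run of letters and not a bound site. The 10 member promoters had a median GC content of 75.0% and a median of 34.5 CpG dinucleotides, against 58% and 11 over all promoters.

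In DMSO the most abundant members were PHC2, EZH2, and SUZ12, and the least abundant was EZH1, on the per-length FPKM scale. SUZ12, CBX2, and PHC2 were higher in all 4 MYCN lines than in SH-EP on FPKM as deposited, whereas with spike-in scaling the mean change of each of the 9 members was negative. These 3 were the only members higher in all 4 lines, and 0 were lower in all 4, also at an unadjusted p below 0.05, where 19.2% of all tested genes were higher and 13.4% lower in all 4 (limma, Benjamini-Hochberg adjusted p below 0.05 over all tested genes). Line by line, 5 members were higher for WT, 5 for T58A, 4 for S62A, and 3 for the double mutant, beside 31.6%, 30.9%, 31.0%, and 31.2% of tested genes. The 4 comparisons share the same 3 SH-EP libraries. The same 3 members were also the ones whose 12 MYCN-line libraries did not overlap the 3 SH-EP libraries, which held for 38.4% of all tested genes.

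**Figure D1:**
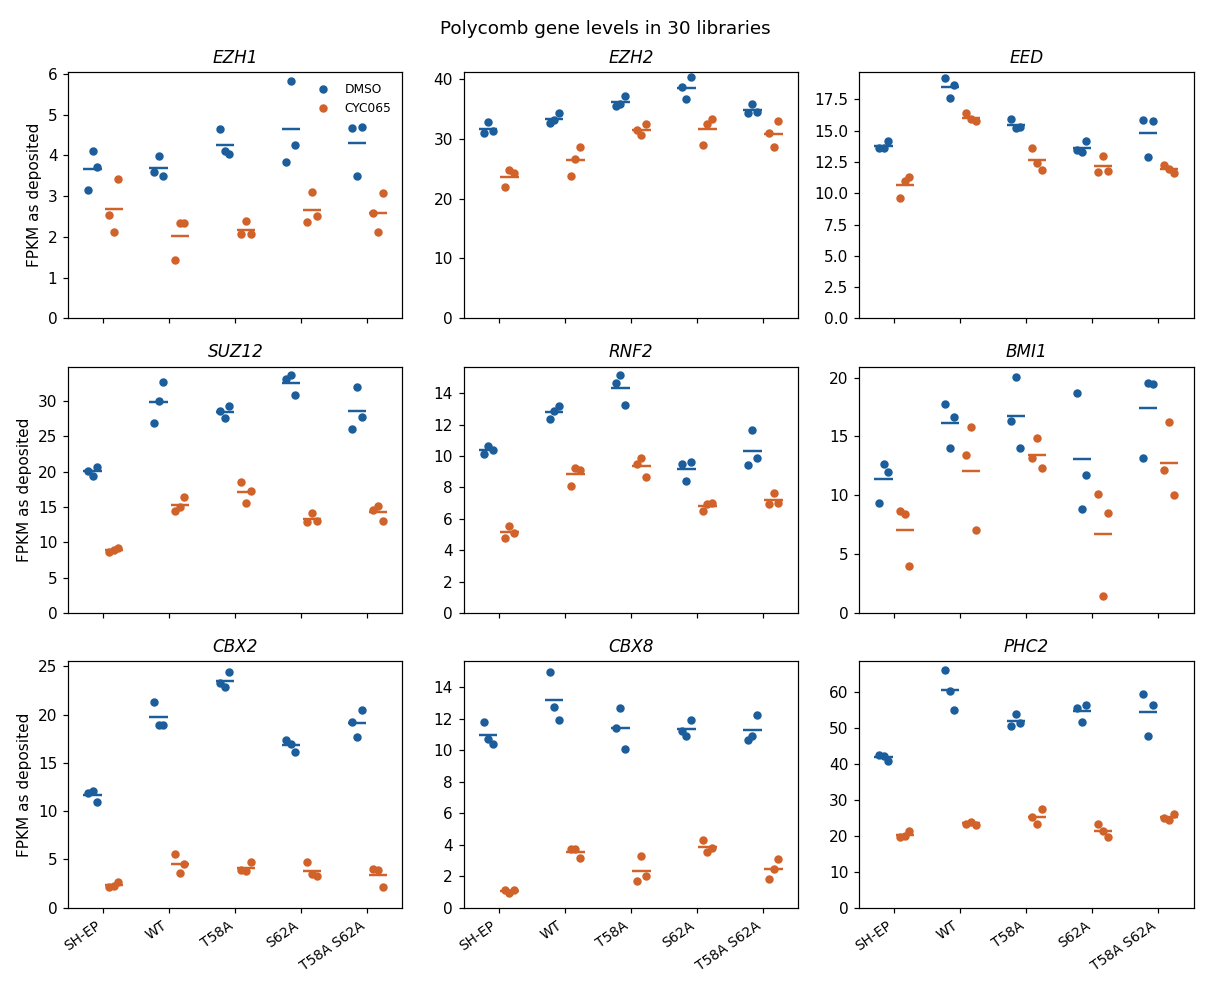
FPKM as deposited of each of the 9 Polycomb genes, with a point per library, a bar at the mean of 3 libraries, DMSO in blue and CYC065 in orange, and the 5 lines along the x axis. SUZ12, CBX2, and PHC2 sit above SH-EP in every MYCN-line DMSO library on this scale, which spike-in scaling turns round, and CBX8 in SH-EP falls from between 10.4 and 11.8 to between 0.944 and 1.15 with CYC065.

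Of the PRC2 core, SUZ12 (chr17:30264026-30328057, GRCh37, plus strand) differed from SH-EP most clearly on FPKM as deposited. With spike-in scaling SUZ12 had the least negative mean change of that core. Its DMSO level was 20.0, 19.4, and 20.6 FPKM in SH-EP libraries a to c, 26.8, 30.03, and 32.6 in WT, 28.6, 27.6, and 29.2 in T58A, 26.0, 32.0, and 27.7 in the double mutant, and 33.1, 33.6, and 30.9 in S62A. Every MYCN-line library was above every SH-EP library, and no pair of MYCN lines passed the test for SUZ12. The log2 change was 0.57 in WT, 0.51 in T58A, 0.51 in the double mutant, and 0.70 in S62A, each with an SE of 0.08, and the mean over the 4 lines was 0.57 (SE 0.06, adjusted p = 4.15e-08, limma) as deposited and -0.68 with spike-in scaling. The table also lists the pseudogene SUZ12P1 at a median of 5.55 FPKM, so some reads of the near-identical copies could have been divided between the rows.

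EZH2, the main PRC2 methyltransferase (chr7:148504349-148581413, minus strand), moved little as deposited, with a mean change of 0.17 against -1.08 with spike-in scaling. Its DMSO level was 31.0, 32.8, and 31.3 FPKM in SH-EP, 32.7, 33.1, and 34.3 in WT, 35.4, 35.8, and 37.2 in T58A, 34.3, 35.7, and 34.4 in the double mutant, and 38.7, 36.7, and 40.3 in S62A. T58A, S62A, and the double mutant lay wholly above SH-EP, and WT overlapped it by the narrow gap between 32.7 and 32.8. The test passed in T58A (log2 change 0.19, SE 0.07, adjusted p = 0.0169, limma) and S62A (0.28, SE 0.07, adjusted p = 0.00078) and did not in WT (0.08) or the double mutant (0.14, adjusted p = 0.0828). The T58A call was lost without SH-EP DMSO library a (0.17, adjusted p = 0.0576) or T58A DMSO library c (0.17, adjusted p = 0.0622). EZH1 (chr17:40852293-40897067, minus strand), the alternative methyltransferase, ranged from 3.15 to 4.11 FPKM in SH-EP and from 3.48 to 5.83 in the 12 MYCN-line libraries and passed in 0 of the 4 lines (log2 changes 0.02 to 0.32, SE 0.19). EZH2 made up 86.3 to 91.1% of the summed EZH1 and EZH2 FPKM in the 15 DMSO libraries. The log2 ratio of EZH1 to EZH2, which library scaling does not move, was 0.02 above SH-EP in the MYCN lines (two-sided exact permutation test, p = 0.859 over 455 splits, smallest possible 0.0022).

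EED, which binds H3K27me3 and stimulates the enzyme (chr11:85912254-85989855, plus strand), passed the test against SH-EP in WT alone, as deposited, while its mean change over the lines was 0.16 as deposited and -1.08 with spike-in scaling. Its DMSO level was 13.6, 13.6, and 14.2 FPKM in SH-EP, 19.2, 17.6, and 18.6 in WT, 15.9, 15.2, and 15.3 in T58A, 15.8, 12.9, and 15.8 in the double mutant, and 13.5, 13.3, and 14.2 in S62A. The 3 WT libraries were above all other DMSO libraries. The change against SH-EP was 0.42 (SE 0.07, adjusted p = 2.9e-05, limma) in WT and 0.16, 0.10, and -0.02 in T58A, the double mutant, and S62A. Tested between MYCN lines, EED was lower than in WT by a log2 change of -0.25 in T58A (adjusted p = 0.0115), -0.32 in the double mutant (adjusted p = 0.00187), and -0.43 in S62A (adjusted p = 8.51e-05). The T58A difference was lost without WT DMSO library a (-0.23, adjusted p = 0.0528), and with spike-in scaling the T58A and double-mutant differences became 0.05 and 0.10 and were not called.

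**Figure D2:**
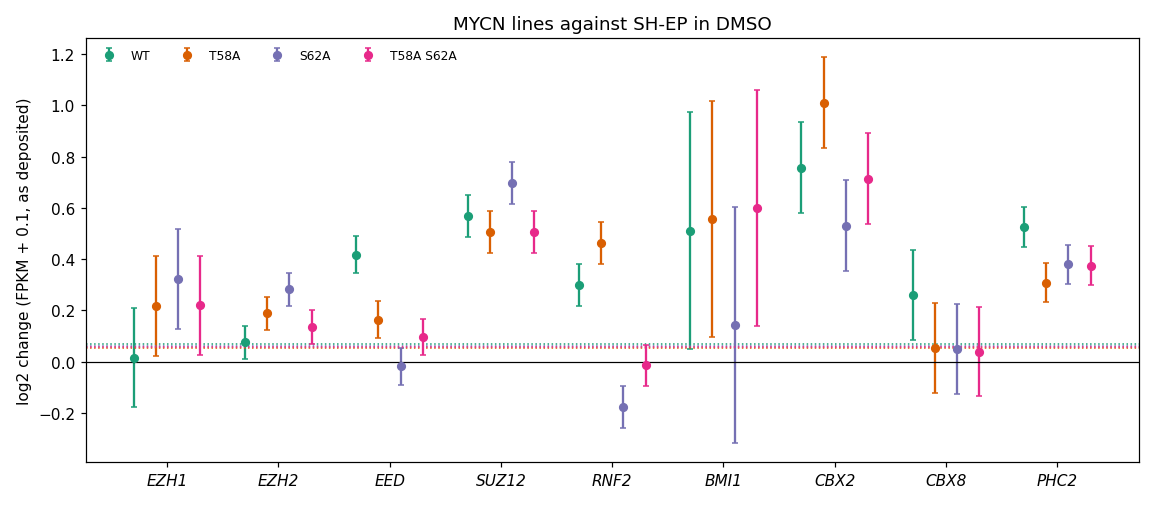
Log2 change from SH-EP to each MYCN line in DMSO for the 9 genes, on log2(FPKM + 0.1) as deposited, with error bars of 1 SE from limma and dotted lines at the median of all tested genes in each line. SUZ12, CBX2, and PHC2 lie above 0 in all 4 lines on this scale (with spike-in scaling their means are -0.68, -0.49, and -0.85), RNF2 lies above 0 in WT and T58A, and the long bars of BMI1 reflect its spread between libraries.

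Among PRC1 members, CBX2 (chr17:77751947-77761782, plus strand), a CBX protein that compacts nucleosomes, had the largest mean change of the 9 as deposited. With spike-in scaling CBX2 had the least negative mean change of the 9. Its DMSO level was 11.8, 12.1, and 10.98 FPKM in SH-EP, 21.4, 19.0, and 18.9 in WT, 23.3, 22.8, and 24.4 in T58A, 19.3, 17.7, and 20.5 in the double mutant, and 17.3, 16.99, and 16.1 in S62A. All MYCN-line libraries were above SH-EP, T58A libraries were the highest and S62A libraries the lowest of the MYCN lines. The log2 change was 0.76 in WT, 1.01 in T58A, 0.71 in the double mutant, and 0.53 in S62A (SE 0.18 each), with a mean of 0.75 (SE 0.14, adjusted p = 5.95e-05, limma) as deposited and -0.49 with spike-in scaling. As deposited, its mean change was above that of 91.9% of the tested genes. S62A was below T58A by a log2 change of -0.48 (adjusted p = 0.0404), a call lost on leaving out any of the 6 libraries of those groups (adjusted p 0.0714 to 0.105).

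PHC2 (chr1:33789224-33896696, minus strand), the polyhomeotic protein that was 79.8 to 89.5% of summed PHC1, PHC2, and PHC3 FPKM in DMSO, also rose on this scale. Its DMSO level was 42.5, 42.4, and 41.0 FPKM in SH-EP, 66.4, 60.5, and 55.0 in WT, 50.7, 54.0, and 51.4 in T58A, 59.7, 47.8, and 56.5 in the double mutant, and 55.8, 51.8, and 56.5 in S62A. The lowest MYCN-line library, at 47.8, was above the highest SH-EP library. The log2 change was 0.53, 0.31, 0.37, and 0.38 in WT, T58A, the double mutant, and S62A (SE 0.08 each), with a mean of 0.40 (SE 0.06, adjusted p = 4.3e-06, limma) as deposited and -0.85 with spike-in scaling. T58A was below WT by -0.22 (adjusted p = 0.0426), which became 0.09 with spike-in scaling and was lost without WT DMSO library a (-0.15, adjusted p = 0.225) or b (-0.22, adjusted p = 0.0908) and without T58A DMSO library a (-0.20, adjusted p = 0.121) or c (-0.21, adjusted p = 0.105).

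RNF2 (chr1:185014658-185071735, plus strand), a catalytic subunit of PRC1 beside its paralog RING1, separated the MYCN lines from one another as deposited, and its mean change from SH-EP was 0.14 (adjusted p = 0.0579, limma) as deposited and -1.10 with spike-in scaling. Its DMSO level was 10.1, 10.7, and 10.4 FPKM in SH-EP, 12.3, 12.9, and 13.2 in WT, 14.6, 15.2, and 13.3 in T58A, 9.42, 11.7, and 9.87 in the double mutant, and 9.51, 8.43, and 9.65 in S62A. WT and T58A libraries were above all others, and S62A libraries were below SH-EP, with the double mutant spanning the SH-EP range. Against SH-EP the test passed in WT (log2 change 0.30, SE 0.08, adjusted p = 0.00318, limma) and T58A (0.46, SE 0.08, adjusted p = 3.64e-05), and gave -0.18 in S62A (adjusted p = 0.0731) and -0.01 in the double mutant. Over the 6 pairs of MYCN lines the members gave 10 calls in 54 tests, where 25.3% of all gene-by-pair tests were called, and 4 of the 10 were RNF2. These were the 4 pairs of a line with S62A against a line without it, namely -0.47 for S62A against WT (adjusted p = 0.000127), -0.64 for S62A against T58A (adjusted p = 1.36e-06), -0.31 for the double mutant against WT (adjusted p = 0.00618), and -0.48 for the double mutant against T58A (adjusted p = 0.000159). The neighbours T58A and WT (0.16, adjusted p = 0.159) and the double mutant and S62A (0.16, adjusted p = 0.142) were not called apart. With spike-in scaling the order of RNF2 was another one, since the double mutant differed from WT by 0.11 and from T58A by -0.36, neither called, and was above S62A by 1.27 (adjusted p = 3.31e-07). Mean MYCN FPKM was lowest in S62A. The double mutant exceeded WT in it by less than the SD of the double mutant, and the part of MYCN in RNF2 was not tested. Each form of MYCN was carried by a single line, so a substitution cannot be told apart from other differences between the lines. RNF2 was 44.9% ± 2.67 (SD, n = 3) of summed RING1 and RNF2 FPKM in T58A, 39.1% ± 3.53 in WT, and between 30.9% and 34.3% on average in the other 3 lines.

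The remaining calls between MYCN lines were the 3 of EED, that of CBX2, that of PHC2, and EZH2 in S62A above WT (0.21, adjusted p = 0.0221, limma). That EZH2 difference was lost without WT DMSO library a or b or S62A DMSO library a or c (adjusted p 0.0588 to 0.0920), and with spike-in scaling it became -0.49 (adjusted p = 0.018).

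CBX8 (chr17:77765931-77775482, minus strand), another reader of H3K27me3, did not pass in any MYCN line in DMSO. Its level was 10.4 to 11.8 FPKM in SH-EP and 10.1 to 14.9 in the MYCN lines, with log2 changes of 0.04 to 0.26 (SE 0.17). CBX8 lies 4149 bp from CBX2 on chromosome 17, and the difference between these neighbours was not tested. These values are as deposited, and with spike-in scaling the mean change was -1.14 for CBX8 and -0.49 for CBX2.

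BMI1, the PCGF protein of canonical PRC1 (chr10:22610028-22620413, plus strand), could be read only together with COMMD3-BMI1, a readthrough gene on the same strand that covers most of it. BMI1 in DMSO was 9.36, 12.6, and 12.01 FPKM in SH-EP, 17.7, 14.04, and 16.7 in WT, 16.3, 20.0, and 14 in T58A, 13.2, 19.6, and 19.4 in the double mutant, and 18.7, 8.80, and 11.7 in S62A. S62A overlapped SH-EP, and no line passed the test (log2 changes 0.14 to 0.60, SE 0.46). COMMD3-BMI1 took between 0.01 and 11.2 FPKM in the 30 libraries, and in every DMSO group but T58A it was highest in the library where BMI1 was lowest. The sum of the 2 rows was 14.5, 14.5, and 15.6 FPKM in SH-EP, 19.0, 18.9, and 21.0 in WT, 22.9, 20.1, and 16.4 in T58A, 18.5, 20.1, and 19.5 in the double mutant, and 20.8, 16.1, and 18.9 in S62A. All 12 MYCN-line libraries were above SH-EP in the sum, which was an alternative chosen after seeing the data. The sum was higher by a log2 change of 0.40 in WT (adjusted p = 0.00315, limma), 0.39 in T58A (adjusted p = 0.00337), 0.38 in the double mutant (adjusted p = 0.00463), and 0.31 in S62A (adjusted p = 0.0167), and its mean change was 0.37 (SE 0.09, adjusted p = 0.000596), all on FPKM as deposited, and the sum was not compared between lines on the spike-in scale, where BMI1 itself gave -0.79.

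**Figure D3:**
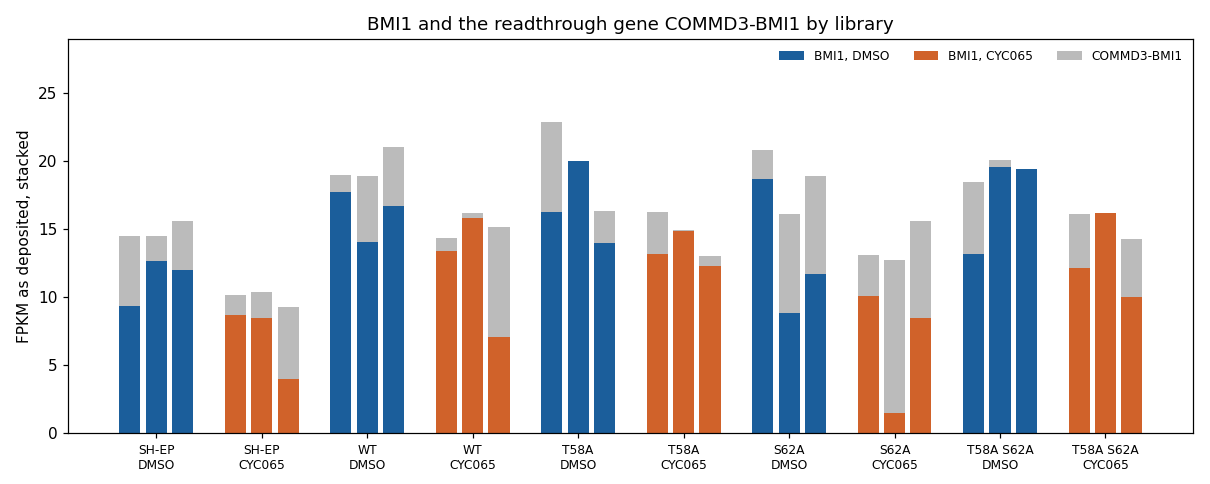
FPKM as deposited of BMI1 (blue in DMSO, orange in CYC065) with the readthrough gene COMMD3-BMI1 stacked on it in gray, 1 bar per library in the order a, b, c. The division between the 2 rows varies widely within groups, as in S62A with CYC065, where BMI1 is 10.1, 1.48, and 8.47, while the total varies from 12.7 to 15.6.

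Scaling decided the sign of the mean difference from SH-EP for every member. The spike-ins were added by cell number, and after scaling to them the median of all tested genes in DMSO was below SH-EP by a log2 change of -1.16 in WT, -0.88 in T58A, -0.75 in the double mutant, and -1.86 in S62A, against 0.05 to 0.07 as deposited. On that scale 6 members were lower in all 4 lines, as were 67.2% of tested genes, and 0.294% were higher. The mean change of SUZ12, CBX2, and PHC2 was then -0.68, -0.49, and -0.85, each less negative than the median over all genes of -1.17. The factor that scaled a DMSO library to the spike-ins was 3.05 to 3.28 in SH-EP and 0.722 to 2.01 in the MYCN lines. Within T58A alone it ranged from 1.20 to 1.94. In bulk libraries, fewer cells, less RNA per cell, and an unequal amount of added spike-in cannot be told apart.

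Other genes of the Polycomb system were described by counts. Of 46 in the table, 42 were tested, 14 were higher and 2 lower in all 4 MYCN lines, beside 19.2% and 13.4% of all tested genes, and their median change was 0.26 against 0.06 over all genes. FOXK1, a DNA-binding partner of the PR-DUB deubiquitinase, rose by 0.88, the PRC2 accessory genes C17orf96 (EPOP) and AEBP2 by 0.86 and 0.79, and PCGF5 of variant PRC1 by 0.70, all on FPKM as deposited and all negative (-0.34 to -0.54) with spike-in scaling. PHF1, a PRC2 accessory protein, fell by 1.42 on the log2 scale and CBX7, another PRC1 reader, fell by 1.28, on either scaling in the same direction. The H3K27 demethylase genes KDM6A and KDM6B passed in 0 of the 4 lines.

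Of the 39 HOX cluster genes, classical Polycomb targets, 17 passed the low-level filter, and as deposited 5 were lower and 0 higher in all 4 MYCN lines, beside 13.4% and 19.2% of all tested genes (with spike-in scaling 67.2% of tested genes were lower). In single lines, 2 of the 17 were higher in WT, 3 in T58A, 4 in the double mutant, and 2 in S62A, beside 30.9 to 31.6% of tested genes. In the same order 6, 7, 7, and 8 were lower, beside 22.6 to 24.1% of tested genes. Of those lower in all 4 lines, HOXC10 changed by -1.22, HOXC6 by -1.01, HOXB5 by -1.0, and HOXB6 by -0.74. Of 20 proliferation genes, 11 were higher and 0 lower in all 4 lines on FPKM as deposited, against the same 19.2% and 13.4% of all genes, led by UHRF1 (0.78), MCM7 (0.66), E2F2 (0.65), and E2F1 (0.55), which were negative with spike-in scaling. The proliferation genes thus moved beside SUZ12, CBX2, and PHC2, and their part in those changes was not tested.

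Over the 15 DMSO libraries, which share lines and library scaling, the genes most like each member by Pearson r of log2(FPKM + 0.1) were found. They were LRRC58 (0.98), RPP30, and CSE1L for SUZ12, SLC7A5 (0.98), RBPMS2, and MRPS2 for CBX2, and LONP1 (0.97), MYBL2, and NUDC for PHC2. For RNF2 they were BIRC2 (0.94), GDF6, and EGLN3, for EZH2 SNX30 (0.92), SPIRE1, and LMBR1, and for EED WIZ (0.90), COA6, and MAZ. The highest r was lower for CBX8 (SURF6, 0.88), BMI1 (HDAC8, 0.87), and EZH1 (SUPT3H, 0.82). Among the members themselves the highest r was 0.74 between EZH2 and SUZ12, followed by 0.72 between CBX2 and PHC2.

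CYC065 lowered all 9 members in all 5 lines on spike-in scaled FPKM, as it did 69.4% of all tested genes (limma, adjusted p below 0.05 in each line). CBX2 and CBX8 fell furthest, and EED and EZH2 least. The median change of all tested genes was -1.06 in SH-EP, -1.57 in WT, -1.08 in T58A, -0.97 in the double mutant, and -1.35 in S62A, and every member was below that median in every line. As deposited, where the median of all genes lay between 0.06 and 0.15, 8 of 9 members, all but BMI1, were lower in all 5 lines, beside 24.4% of tested genes lower and 28.5% higher. With each library centered on its median, 5 members were lower in all 5 lines.

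**Figure D4:**
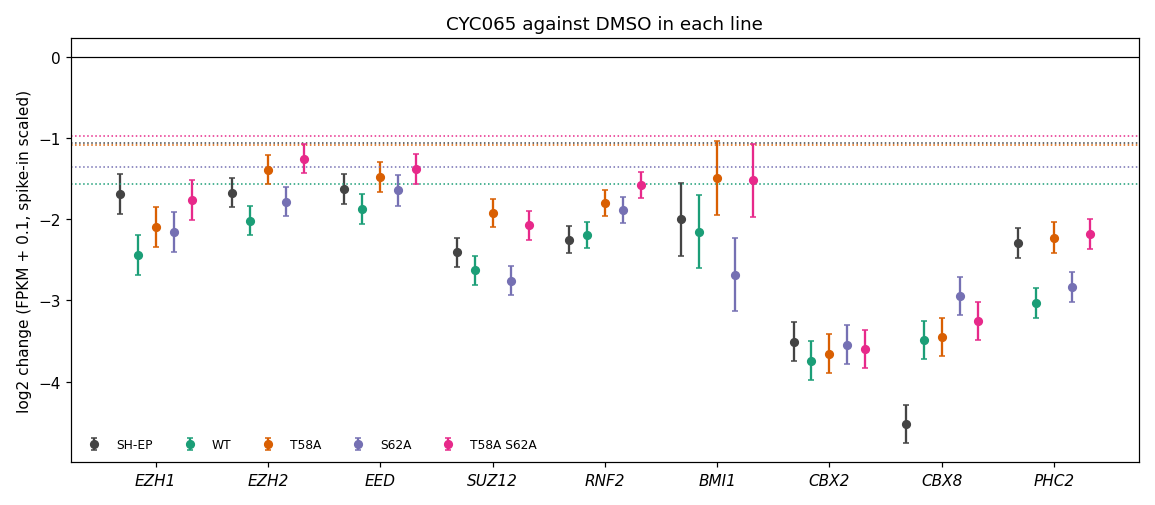
Log2 change with CYC065 against DMSO in each of the 5 lines for the 9 genes, on log2(FPKM + 0.1) after spike-in scaling, with error bars of 1 SE from limma and dotted lines at the median of all tested genes in each line. Every point is below its line's median, CBX2 lies between -3.51 and -3.75 in all lines, and CBX8 lies at -4.53 in SH-EP and between -2.95 and -3.49 in the MYCN lines.

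Within PRC2 the mean change over the 5 lines was -2.36 for SUZ12 (SE 0.08), -2.03 for EZH1 (SE 0.11), -1.62 for EZH2 (SE 0.08), and -1.60 for EED (SE 0.08). Relative to the median of all genes these were -1.16, -0.83, -0.43, and -0.40, so EZH2 and EED stayed nearer to the bulk of mRNA than SUZ12 and EZH1 did. SUZ12 as deposited went from 20.0, 19.4, and 20.6 to 8.56, 8.97, and 9.23 FPKM in SH-EP and from 26.0 to 33.6 across the MYCN lines to 12.9 to 18.6. EZH2 as deposited went from 31.0, 32.8, and 31.3 to 22.0, 24.7, and 24.3 FPKM in SH-EP and from 32.7 to 40.3 to 23.8 to 33.3 in the MYCN lines. EED went from between 12.9 and 19.2 FPKM in DMSO to between 9.61 and 16.4 in CYC065 over the 15 libraries each, and EZH1 from between 3.15 and 5.83 to between 1.43 and 3.42. The CYC065 and DMSO libraries of SUZ12 did not overlap over all 15 against 15. As deposited, 3130 of 11575 tested genes and 4 of the 9 members separated in this way, in either direction. The libraries of EZH2 overlapped across lines but not within any line.

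The ratio of EZH1 to EZH2 fell with CYC065 by 0.46 on the log2 scale averaged over the 5 lines (two-sided exact permutation test within lines, p = 7.44e-05 over 3200000 arrangements). The mean ratio went from -3.15 to -3.67 in WT, from -3.06 to -3.80 in T58A, from -3.05 to -3.53 in S62A, and from -3.0 to -3.54 in the double mutant. In SH-EP it was -3.09 in DMSO and -3.11 in CYC065, and whether SH-EP differed from the MYCN lines in this was not tested.

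Within PRC1 the mean change was -3.61 for CBX2 (SE 0.11), -3.53 for CBX8 (SE 0.10), -2.51 for PHC2 (SE 0.08), -1.97 for BMI1 (SE 0.20), and -1.94 for RNF2 (SE 0.07). Only 2.0% of tested genes lay further down than CBX2, and 2.35% further down than CBX8. CBX2 as deposited after CYC065 was 2.17, 2.26, and 2.69 FPKM in SH-EP, 5.58, 3.56, and 4.57 in WT, 3.92, 3.78, and 4.75 in T58A, 4.05, 3.90, and 2.12 in the double mutant, and 4.70, 3.49, and 3.24 in S62A. All 15 were below the lowest DMSO library, at 10.98 in SH-EP. PHC2 was 19.6 to 27.4 FPKM in the CYC065 libraries and 41.0 to 66.4 in DMSO. Separation of all 15 from all 15 held for 4 members, SUZ12, CBX2, CBX8, and PHC2, and for 3130 of 11575 tested genes. Within each line the CYC065 and DMSO libraries of 8 of the 9 members did not overlap, beside 81.7% of tested genes for SH-EP, 73.9% for WT, 71.2% for T58A, 75.7% for S62A, and 73.6% for the double mutant. The member that overlapped was EZH1 in SH-EP and BMI1 in each MYCN line. The sum of BMI1 and COMMD3-BMI1 fell in every line, by 1.39 to 2.04 on the log2 scale after spike-in scaling. As deposited its mean went from 14.9 to 9.93 FPKM in SH-EP. In the MYCN lines it went from between 18.6 and 19.8 to between 13.8 and 15.5.

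On spike-in scaled FPKM, CBX8 was the only member whose response to CYC065 was called different from that of SH-EP in any MYCN line. As deposited it went from 11.8, 10.7, and 10.4 to 1.15, 0.944, and 1.09 FPKM in SH-EP, and after CYC065 it was 3.73, 3.73, and 3.18 in WT, 1.71, 3.27, and 2.01 in T58A, 1.80, 2.46, and 3.08 in the double mutant, and 4.27, 3.53, and 3.77 in S62A. All 12 MYCN-line CYC065 libraries were above the 3 SH-EP ones for CBX8, from DMSO levels that overlapped. The share of all tested genes separating in this way with CYC065 was not computed, and in DMSO it was 38.4% in either direction. On the spike-in scale the change was -4.53 in SH-EP, -3.49 in WT, -3.45 in T58A, -3.25 in the double mutant, and -2.95 in S62A (SE 0.23 each). The spike-in scaled level averaged 34.9 ± 2.79 (SD, n = 3) in SH-EP in DMSO and 9.33 ± 0.810 to 20.1 ± 1.10 in the MYCN lines, and with CYC065 it was 1.42 ± 0.187 in SH-EP and 1.13 ± 0.217 to 2.11 ± 0.774 in the MYCN lines. On this scale SH-EP stood apart in DMSO rather than after CYC065, the reverse of the deposited scale. The difference from SH-EP, tested as an interaction, was 1.03 in WT (adjusted p = 0.0384, limma), 1.28 in the double mutant (adjusted p = 0.0178), and 1.57 in S62A (adjusted p = 0.00443), and 1.07 in T58A, which did not pass (adjusted p = 0.0886), where 7.77% of all gene-by-line tests were called and the share of genes called upward was 1.89% for WT, 2.28% for T58A, 3.08% for S62A, and 5.21% for the double mutant. The mean difference over the 4 lines was 1.24 (SE 0.26, adjusted p = 0.00313).

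The CBX8 calls depended on the spike-ins used. With only spike-ins of at least 50 FPKM the differences were 0.95 in WT (adjusted p = 0.148, limma), 1.03 in the double mutant (adjusted p = 0.321), and 1.28 in S62A (adjusted p = 0.0881), and none was called. The WT call also rested on single libraries. It was lost without any 1 SH-EP DMSO library, SH-EP CYC065 library a or b, WT DMSO library c, or any 1 WT CYC065 library (differences 0.91 to 1.13, adjusted p 0.0515 to 0.101, limma). The double-mutant call was lost without SH-EP DMSO library a, SH-EP CYC065 library c, or double-mutant CYC065 library c (differences 1.00 to 1.21, adjusted p 0.0552 to 0.0891). On FPKM as deposited the difference passed in all 4 lines, at 1.39, 0.96, 1.06, and 1.72 in WT, T58A, the double mutant, and S62A. CBX2, the neighbour of CBX8, gave differences of -0.24 to -0.04 that did not pass.

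In the interaction test 0 members passed in all 4 lines (limma), beside 1.37% of tested genes in the upward direction, and at an unadjusted p below 0.05 the count was 1, CBX8. Members that passed in at least 1 line numbered 1 of 9, again CBX8, beside 22.6% of tested genes. PHC2 in WT fell just short at -0.74 (adjusted p = 0.0514, limma), where the median of all tested genes was -0.52. It was called in 9 of the 30 fits that left out 1 library. RNF2 had spike-in scaled differences of 0.06 to 0.67 that did not pass, and as deposited it passed in all 4 lines (0.39 to 0.58). RNF2 after CYC065 was 4.80, 5.51, and 5.12 FPKM in SH-EP and 6.50 to 9.90 in the MYCN lines.

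Of the 42 other Polycomb genes tested, 36 were lower in all 5 lines with CYC065 and 0 were higher, beside 69.4% and 0.501% of tested genes, with a median of the mean changes of -1.64 against -1.20. FOXK1 fell by 4.23, MGA, a subunit of variant PRC1, by 3.74, and ASXL2 and KDM2B by 3.19 each on the log2 scale. SCML1 had the highest mean change, 0.20, followed by RBBP7 (-0.56), PCGF5 (-0.61), and LCOR (-0.70), of which the last 3 turned positive (0.60 to 0.78) on FPKM as deposited. Of the 17 HOX genes 14 were lower in all 5 lines, with HOXD13 (-3.03), HOXC4 (-2.76), HOXA5 (-2.67), and HOXA2 (-2.45) lowest and HOXB2 (-0.82) and HOXB5 (-0.84) least, the last 2 turning positive (0.45 and 0.42) as deposited. Of the 20 proliferation genes 16 were lower in all 5, from CCNE2 (-3.83), CCNA2 (-2.68), CDC6 (-2.54), and UHRF1 (-2.29) to MCM2 (-0.72), RRM1 (-0.68), MCM7 (-0.65), and TYMS (-0.52), of which these last 4 turned positive (0.62 to 0.82) as deposited.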

How the data were processed

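The authors spiked ERCC controls in proportion to cell number, sequenced strand-specific libraries of poly(A) RNA, aligned to hg19 (with HISAT per the labels and HISAT2 per the study's methods), and ran Cufflinks. The annotation used is not given in the sources used here. The deposited values are FPKM, not scaled to spike-ins, for 26228 genes and 92 spike-ins in 30 libraries, and 0 columns belonged to other samples. The 9 members and the gene lists were chosen with earlier results of these data known.

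From these values, log2(FPKM + 0.1) of 11575 genes (mean 1 FPKM or more) was fitted with limma 3.58.1 (R 4.3.3, empirical Bayes with trend) in 1 model over 10 groups of 3 libraries, with Benjamini-Hochberg adjustment and a threshold of 0.05. The pseudocount shrinks the changes of low genes. Line contrasts used the deposited scale. CYC065 responses and interactions used libraries scaled to the median log2 level of the 55 spike-ins that averaged 1 FPKM or more. Named genes were the 9 members and, from each list, up to 4 rising and 4 falling with the largest mean change. Replicates are unnumbered here, since column names and labels number libraries differently. Within groups, log2 values correlated at 0.925 to 0.959, and 0 libraries held identical values. The fit was tested on simulated data for the WT line against SH-EP, with a log2 change of 1 either way. There 170 of 200 changed genes were recovered among 11575 genes, with 7 false calls. Smaller changes were not simulated. The alternatives were pseudocounts of 0.01 and 1, a filter at 5 FPKM or none, other scalings and spike-in sets, only the groups compared, a replicate block by column digit, a 1.5-fold minimum, and each library left out. Gene positions are from GRCh37 (GENCODE) and promoters from RefSeq (GRCh38.p14). Permutation tests were run in Python 3.11.15 with numpy 2.4.6.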

Additional observations from a re-analysis of the deposited data

Results flagged for a closer look

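The spike-in scaled response of CBX8 to CYC065 was called different from that of SH-EP in 3 MYCN lines, in a test of the difference itself. The spike-in scaled log2 change in WT minus that in SH-EP was 1.03, that in S62A minus SH-EP was 1.57, and that in T58A S62A minus SH-EP was 1.28 (interaction term, adjusted p = 0.0384, 0.00443, and 0.0178, limma). With only spike-ins of at least 50 FPKM the CBX8 differences were 0.95, 1.28, and 1.03, in the same order, and none was called (adjusted p = 0.148, 0.0881, and 0.321, limma). The 3 differences share the 6 SH-EP libraries and are not independent. SH-EP libraries with CYC065 held CBX8 at 0.944 to 1.15 FPKM, and the CYC065 libraries had relative depths of 0.293 to 0.555. The part of depth in these differences was not tested.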

How the results depend on the processing

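Members higher in all 4 MYCN lines numbered 3, and 3 again without any 1 library, but 6 members passed (all lower) with spike-in scaling and 0 at a change of at least 1.5-fold. Calls between MYCN lines numbered 10, ranged from 7 to 13 without 1 library, and were 26 with spike-in scaling and 1 at 1.5-fold. Members lowered by CYC065 in all 5 lines numbered 9, with or without any 1 library, and 5 with libraries centered on their median. Members whose response differed from SH-EP in all 4 lines numbered 0, also without any 1 library, and were 1 with a pseudocount of 1, 2 on FPKM as deposited, 2 with centered libraries, and 1 with the 47 spike-ins above 0 in every library, a set chosen after seeing the data. With spike-ins of at least 50 FPKM, the CBX8 differences from SH-EP went from 1.03, 1.57, and 1.28 to 0.95, 1.28, and 1.03 for WT, then S62A, then the line with both substitutions, and the 3 calls were lost (adjusted p = 0.148, 0.0881, and 0.321, limma). The EZH1 to EZH2 ratio ranged from -0.06 to 0.08 between lines and from -0.49 to -0.42 for CYC065 without 1 library. With the log2 difference of lines on the spike-in scale, the mean change turned to -1.03 for EZH1, -1.08 for EZH2, -1.08 for EED, -0.68 for SUZ12, -0.79 for BMI1, -1.10 for RNF2, -0.49 for CBX2, -1.14 for CBX8, and -0.85 for PHC2, and to -0.35 for FOXK1, -0.34 for C17orf96, -0.44 for AEBP2, -0.54 for PCGF5, -0.47 for UHRF1, -0.59 for MCM7, -0.57 for E2F2, and -0.69 for E2F1. The CYC065 change turned positive as deposited and with centered libraries, respectively, for RBBP7 (0.78 and 0.95), PCGF5 (0.73 and 0.89), LCOR (0.60 and 0.76), HOXB2 (0.45 and 0.61), HOXB5 (0.42 and 0.58), TYMS (0.82 and 0.98), MCM7 (0.69 and 0.85), RRM1 (0.66 and 0.83), and MCM2 (0.62 and 0.79). These reversals follow from the shift in the median of all genes given in the report. Of the other single-gene results, 577 kept direction and side of the threshold, 6 became called, and 10 lost the call, and of those without 1 library 1876 kept it, 3 became called, and 11 lost it. A replicate block could be fitted only by the last digit of the column names, which could not be matched to the labels' replicate numbers, and was added after seeing the data. Libraries with the same digit did not deviate together (median correlation 0.00026 over 135 pairs, 13 of 30 libraries closest to their own digit), and the block left the counts at 3, 10, 9, and 0. Read totals are unknown, so no counting interval could be given, and relative depth was lower with CYC065.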
